A study of Mus musculus with 18 samples.

Results

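The immunoglobulin heavy chain locus (Igh, chromosome 12 from 113200000 to 116010000, mm10) and the kappa light chain locus (Igk, chromosome 6 from 67500000 to 70750000) were examined in CD4+CD8+ double positive (DP) thymocytes, the stage at which T cell progenitors rearrange their receptor alpha genes. Every CTCF or SMC1A peak that overlapped either interval was taken, which gave 301 of 207027 peaks in 7 lists, 255 of them in Igh and 46 in Igk. The profiles were made by CUT&RUN, in which an antibody directs a nuclease to a chromatin protein and the released fragments are sequenced. The cells were sorted from the thymus of Satb1 KO mice or of WT mice. Both genotypes had received tamoxifen, which is used to induce the deletion in some conditional knockouts. The lists were 2 of Satb1 KO SMC1A, 2 of WT SMC1A, 2 of Satb1 KO CTCF and 1 of WT CTCF. The series holds 18 samples, and its second WT CTCF library was not analysed here, nor were its other kinds of sample (H3K27ac, IgG, input). The labels used here give neither the age of the mice nor the Cre driver, nor do they say that replicates came from separate animals, so spreads and p-values measure differences between these libraries, which may be technical. Peaks do not measure RNA, so the cell type label was not checked against marker genes, and the deletion of Satb1 was not checked either.

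Immunoglobulin genes are assembled from V, D and J segments in B cells. The C genes of Igh, Ighm among them, encode the constant parts of the antibody classes, and Igkc encodes the constant part of the kappa chain. In T lineage cells Igh can join D to J, but the V segments of Igh and Igk are not joined in full. In B cell progenitors cohesin, the ring complex of which SMC1A is a core subunit, extrudes loops through these loci until it is halted at CTCF, and the CTCF sites near V segments, at IGCR1 between the V segments and the D segment Ighd1-1, and in the 3′ flank beyond Igha are known to shape V usage. In Igh the constant genes have the lower coordinates and the V segments the higher ones, so the side of a V segment with the lower coordinate is the side that carries its recombination signal. The RefSeq table of GRCm38.p6, the assembly behind mm10, lists 183 V, 20 D and 4 J segments in Igh and 162 V and 5 J segments in Igk.

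No genome sequence was used, so the sequences under most peaks are not printed. Promoter windows of 300 bases were at hand in RefSeq (GRCm38.p6) for 12 genes within the loci, 7 in Igh and 5 in Igk. They were searched on both strands for CCANNAGNNGG, a part of the CTCF consensus, which occurred in 2310 of the 32851 promoters of the table (7.03%). Of the 12 promoters, 2 overlapped a CTCF peak, both in Satb1 KO CTCF replicate 1 alone, and none overlapped an SMC1A peak. The promoter of Gm40900 (chromosome 12, 115703580 to 115703879, plus strand), among the distal V segments, overlapped 1 of these peaks and held 1 match, shown in capitals, on the minus strand. The promoter of Gm30948 (115262401 to 115262700, plus strand) held the same capitals and had no peak in the 7 lists, and that of Gm30996 (115407364 to 115407663, plus strand) had neither match nor peak. The 3 are shown because they repeat nearly the same stretch, as V segments and the sequence between them often do, which bears on how short reads can be placed in this locus.
Gm40900: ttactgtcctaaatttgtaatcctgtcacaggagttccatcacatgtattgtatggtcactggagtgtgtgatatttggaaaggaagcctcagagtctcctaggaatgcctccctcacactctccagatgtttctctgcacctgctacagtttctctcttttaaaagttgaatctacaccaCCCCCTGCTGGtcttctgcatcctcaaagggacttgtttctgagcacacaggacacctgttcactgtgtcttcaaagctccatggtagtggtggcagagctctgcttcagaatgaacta
Gm30948: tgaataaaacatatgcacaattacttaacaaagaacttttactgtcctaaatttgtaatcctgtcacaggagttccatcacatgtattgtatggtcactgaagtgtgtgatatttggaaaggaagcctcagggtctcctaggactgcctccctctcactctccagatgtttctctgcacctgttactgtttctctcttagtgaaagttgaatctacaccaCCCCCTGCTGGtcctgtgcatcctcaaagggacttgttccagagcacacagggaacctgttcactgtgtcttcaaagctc
Gm30996: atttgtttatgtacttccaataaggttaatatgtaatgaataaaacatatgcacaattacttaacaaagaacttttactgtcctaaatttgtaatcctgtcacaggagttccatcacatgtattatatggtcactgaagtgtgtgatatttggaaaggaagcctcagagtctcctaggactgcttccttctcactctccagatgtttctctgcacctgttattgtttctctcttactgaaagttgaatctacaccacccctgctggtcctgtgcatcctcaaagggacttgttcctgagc
The promoter of Gm40899 (114764158 to 114764457, plus strand) was the other one under a peak and held no match. A match describes letters in the window and is not a measured site.

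The SMC1A lists held 28151 and 20689 peaks in Satb1 KO and 19882 and 20638 in WT. The CTCF lists held 55750 and 22928 peaks in Satb1 KO and 38989 in WT. Read totals are unknown from peak lists. As a proxy, the lowest 1% of the local backgrounds implied by the peak caller's statistics was 0.633 and 0.384 reads in Satb1 KO SMC1A, 0.533 and 0.465 reads in WT SMC1A, 1.82 and 3.28 reads in Satb1 KO CTCF and 1.02 reads in WT CTCF. Satb1 KO replicate 1 of each mark had the longest list, and its part in the results was not tested beyond the values without it given beside them. A merged region counts below as gained where both Satb1 KO SMC1A lists and neither WT list held it, and as lost in the opposite case. For CTCF, a region is new where both Satb1 KO lists and not the WT list held it, and absent where the WT list alone held it.

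In Igh, SMC1A kept the same few sites at the constant, J and D end in all 4 lists, whereas among the distal V segments the Satb1 KO lists held many more peaks than the WT lists. Igh held 36 and 20 SMC1A peaks in Satb1 KO and 10 and 12 in WT. Per 1000 peaks of the list, this was 1.28 and 0.967 in Satb1 KO against 0.503 and 0.581 in WT, so the genotypes did not overlap. The means were 1.12 ± 0.221 in Satb1 KO and 0.542 ± 0.0555 in WT (SD, n = 2 each), a ratio of 2.07. An exact two-sided permutation test gave p = 0.333, the smallest value that 2 lists against 2 allow. The difference was 0.776 within batch 1 and 0.385 within batch 2, where batch means the replicate number in the sample titles. As background, both Satb1 KO densities lay above both WT densities in 21.6% of 1276 windows of 1 Mb across the genome.

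**Figure D1:**
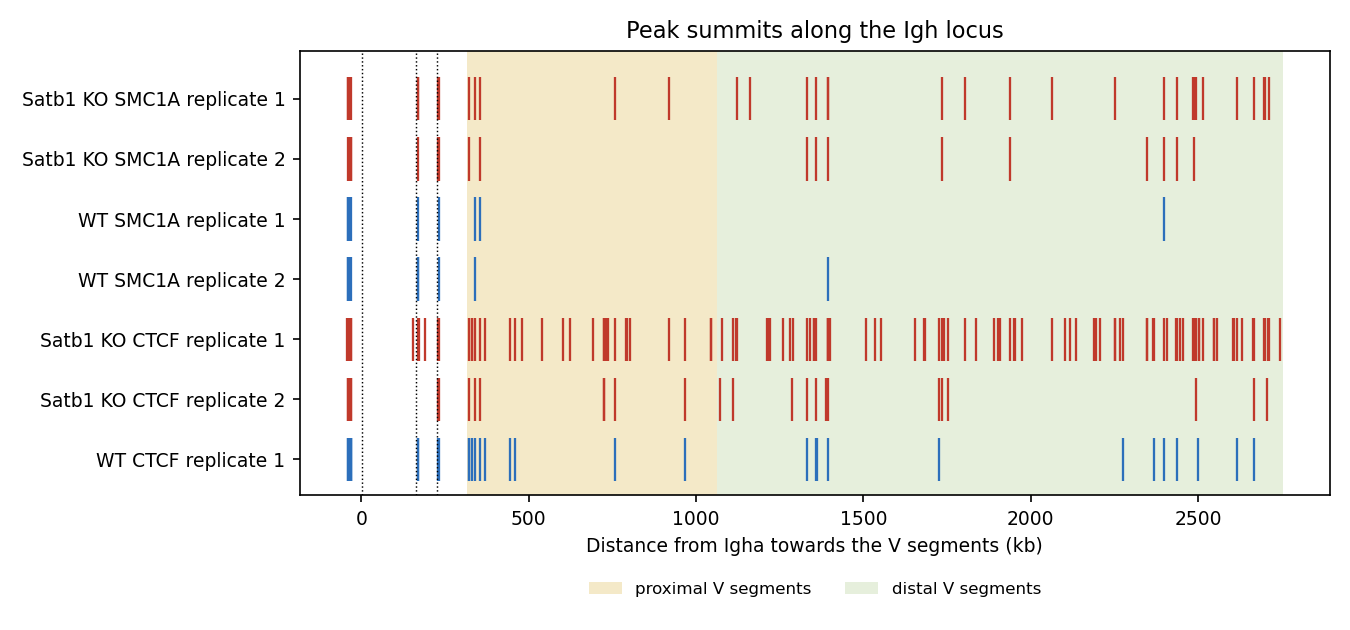
Summits of all Igh peaks by list (rows, Satb1 KO in red, WT in blue) against distance from Igha towards the V segments in kb. Dotted lines mark Igha, Ighm and Ighd1-1. The distal V segments hold 22 and 9 SMC1A summits in Satb1 KO and 1 in each WT list, and the marks left of Igha stand in every list.

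The 3′ flank of Igha, which carries a known cluster of CTCF sites beyond the 3′ regulatory region, held more SMC1A peaks per length than the genome in every list. It is 56.2 kb long and held 5 and 6 SMC1A peaks in Satb1 KO and 5 and 7 in WT, with 5 and 5 CTCF peaks in Satb1 KO and 6 in WT. In peaks per 100 kb, SMC1A stood there at 8.90 and 10.7 in Satb1 KO and 8.90 and 12.5 in WT, where the whole genome held 1.03 and 0.760 in Satb1 KO and 0.730 and 0.758 in WT. The strongest SMC1A region of Igh lay from 113219477 to 113223120, 33.8 kb below Igha. Its −log10 q was 98.1 and 71.7 in Satb1 KO and 77.0 and 81.3 in WT, with overlapping values. A CTCF region from 113216986 to 113223221 covered it, with −log10 q of 486 and 97.6 in Satb1 KO and 190 in WT. The other SMC1A regions of the flank present in all 4 lists lay from 113217567 to 113218423 (30.8 and 15.2 in Satb1 KO, 18.4 and 26.7 in WT) and from 113225061 to 113225889 (11.4 and 12.1 in Satb1 KO, 18.7 and 17.2 in WT). The CTCF regions from 113215357 to 113216714, from 113223977 to 113224629 and from 113224805 to 113225822 were also in all 3 lists. The authors' q value of a peak depends on the depth of its library, so it ranks peaks within 1 list and is no amount to compare between lists.

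The constant genes themselves were nearly bare. The 167 kb from Igha to Ighm held 0 SMC1A peaks in all 4 lists and 1 CTCF peak, in Satb1 KO replicate 1. The interval between Ighm and Ighj4, which in B cells holds the switch region of Ighm and the intronic enhancer, is 5.78 kb long and held 2 and 1 SMC1A peaks in Satb1 KO and 1 and 2 in WT. The interval held 1 SMC1A region in all 4 lists, from 113424428 to 113425764, with −log10 q of 11.1 and 6.28 in Satb1 KO and 14.4 and 7.82 in WT. The peak nearest Ighm had its summit 1735 and 2359 bp above the gene in the Satb1 KO SMC1A lists and 2360 and 1766 bp above it in the WT lists. For CTCF the nearest summit was 2418 bp away in Satb1 KO replicate 1 and 2314 bp away in WT, but 62393 bp away in Satb1 KO replicate 2. A CTCF region from 113426927 to 113427126, 1.57 kb from Ighj4, was in the WT list alone, with −log10 q of 2.05, a weak peak. Beside it, a CTCF region from 113427457 to 113427956 was in Satb1 KO replicate 1 alone, with −log10 q of 7.44.

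On the V side of Ighd1-1, the outermost functional D segment on that side of the main D cluster, both marks formed a pair of regions, in the interval where IGCR1 was mapped in B cells. The outer region, from 113487604 to 113488232 for SMC1A and 5.71 kb from Ighd1-1, was in all 7 lists. Its SMC1A −log10 q was 30.4 and 28.6 in Satb1 KO and 22.4 and 15.4 in WT, and the CTCF region there, from 113487528 to 113488328, had 121 and 30.2 in Satb1 KO and 27 in WT. The inner one, 2.94 kb from Ighd1-1, was a CTCF region in all 3 lists (113485023 to 113486313, −log10 q 40.2 and 5.44 in Satb1 KO, 5.89 in WT) but an SMC1A region in Satb1 KO alone (113485040 to 113485456, −log10 q 4.78 and 1.92). The lower of these is close to the limit of calling. From Ighd5-1 to Ighv5-1, the 46.1 kb before the first V segment, no list held a peak. Outside the V segments as a whole, SMC1A stood at 0.320 and 0.435 peaks per 1000 in Satb1 KO and 0.352 and 0.485 in WT, with overlapping values.

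**Figure D2:**
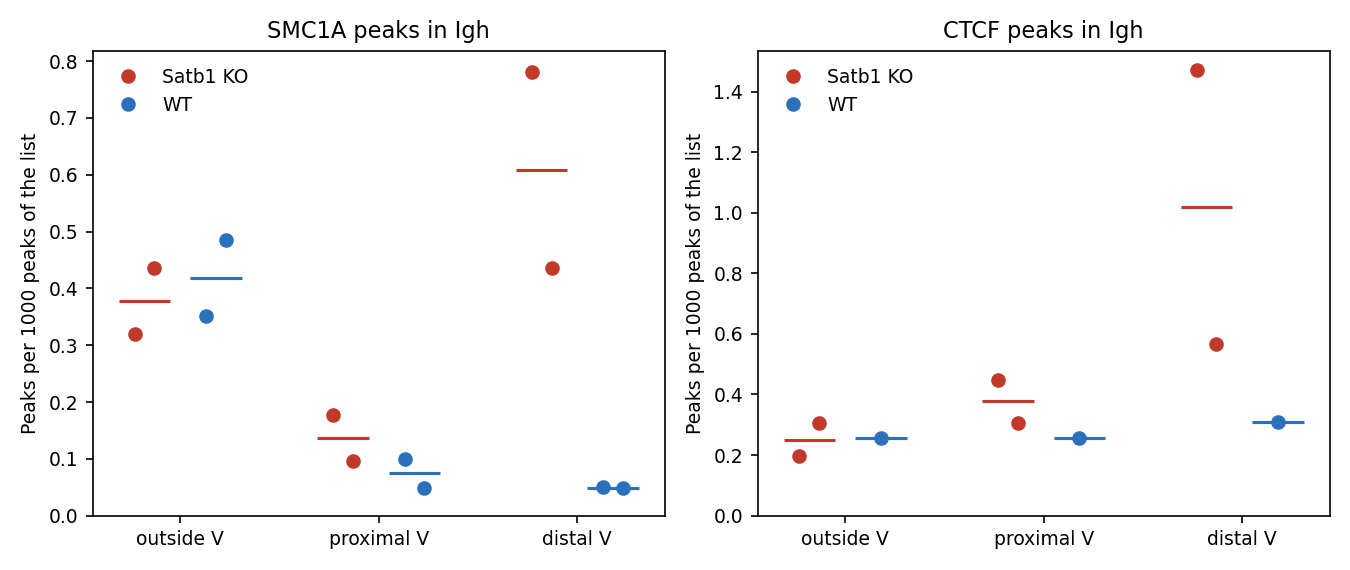
Peaks per 1000 peaks of the list in 3 parts of Igh, for SMC1A (left panel) and CTCF (right panel). Points are lists, Satb1 KO left of WT, and bars are means, with 1 WT list for CTCF. SMC1A overlaps between genotypes outside the V segments and is separate among the distal V segments. Both Satb1 KO lists stand above both WT lists there, as in 21.6% of 1276 windows of 1 Mb across the genome.

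The V segments were divided at the last member of the Ighv2 and Ighv5 families, which leaves 62 V segments in 747 kb on the proximal side and 121 in 1690 kb on the distal side. The proximal part held 5 and 2 SMC1A peaks in Satb1 KO and 2 and 1 in WT. The distal part held 22 and 9 in Satb1 KO and 1 and 1 in WT. Per 1000 peaks the distal values were 0.782 and 0.435 in Satb1 KO and 0.0503 and 0.0485 in WT, so neither Satb1 KO list came near a WT list. As background, both Satb1 KO densities lay above both WT densities in 21.6% of 1276 windows across the genome. Those windows are 1 Mb long, shorter than the distal part. Satb1 KO replicate 2 is of nearly the same length as WT replicate 2, with 20689 against 20638 peaks. The mean difference was 0.559 (exact two-sided permutation p = 0.333, the smallest possible), and 0.386 without Satb1 KO replicate 1. In lists cut to the same length the distal counts were 12 and 8 in Satb1 KO and 1 and 1 in WT, and with −log10 q of 5 or more they were 12 and 4 in Satb1 KO and 1 and 1 in WT. In peaks per 100 kb, the distal V segments stood at 1.30 and 0.533 in Satb1 KO, beside 1.03 and 0.760 over the genome in the same lists, and at 0.0592 in each WT list, beside 0.730 and 0.758.

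The distal SMC1A peaks were weak ones. Their median −log10 q was 5.25 and 4.02 in Satb1 KO, against 14.0 and 12.1 for the Igh peaks outside the V segments in the same lists. The single distal peak of each WT list had −log10 q of 6.20 and 5.04. The pile-up at their summits, solved from the deposited statistics, had a median of 10 and 9 reads in Satb1 KO. At such levels a site can be missed in a list by counting error, and absence from a list is no measure of 0 binding.

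Merged over the 4 lists, the V segments of Igh held 28 SMC1A regions, of which 16 were in Satb1 KO replicate 1 alone. Both WT lists held 1 of them and both Satb1 KO lists held 10, of which 7 were gained. With the region near Ighd1-1, 8 of the 16 Igh regions in both Satb1 KO lists were gained, where the share over the genome was 13.1%. No Igh region was lost, with 7 in both WT lists and a genome share of 4.15%. Of the 36 Igh regions 5 were in all 4 lists, beside 35.0% of regions in the genome, and none of the 5 lay among V segments. The gained count depended on weak peaks. With −log10 q of 5 or more, 1 of 7 Igh regions was gained, beside 12.9% over the genome, and in lists of equal length 3 of 10 were, beside 9.93%.

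The 7 gained V regions, named by rule, were 1 near a proximal and 6 near distal segments. The proximal one lay from 113578279 to 113578619, with its summit 75 bp below Ighv5-2 (VH81X), the functional V segment nearest the D segments and the most used one in early B cell repertoires. Its −log10 q was 7.59 and 3.70 in Satb1 KO, with no WT peak. The strongest distal one lay from 114587211 to 114587681, 3590 bp above Ighv1-9, with 9.18 and 5.32 in Satb1 KO. The others lay from 114615442 to 114616133 (66 bp below Ighv1-12), from 114990938 to 114991388 (inside Ighv1-47), from 115193687 to 115194100 (inside Ighv1-54), from 115693844 to 115694226 (1858 bp above Ighv1-70) and from 115743956 to 115744369 (1682 bp above Ighv1-71). Their −log10 q ran between 2.28 and 6.09 in the Satb1 KO lists. The proximal region near Ighv5-4 (113597165 to 113597564) showed the other pattern, with −log10 q of 7.91 and no peak in Satb1 KO and 8.88 and 8.30 in WT, and was named after its values were seen. All 7 gained V regions overlapped a CTCF peak in Satb1 KO replicate 1, 4 in Satb1 KO replicate 2 and 4 in the WT list, and 3 did so in all 3 CTCF lists, those near Ighv5-2, Ighv1-9 and Ighv1-12.

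**Figure D3:**
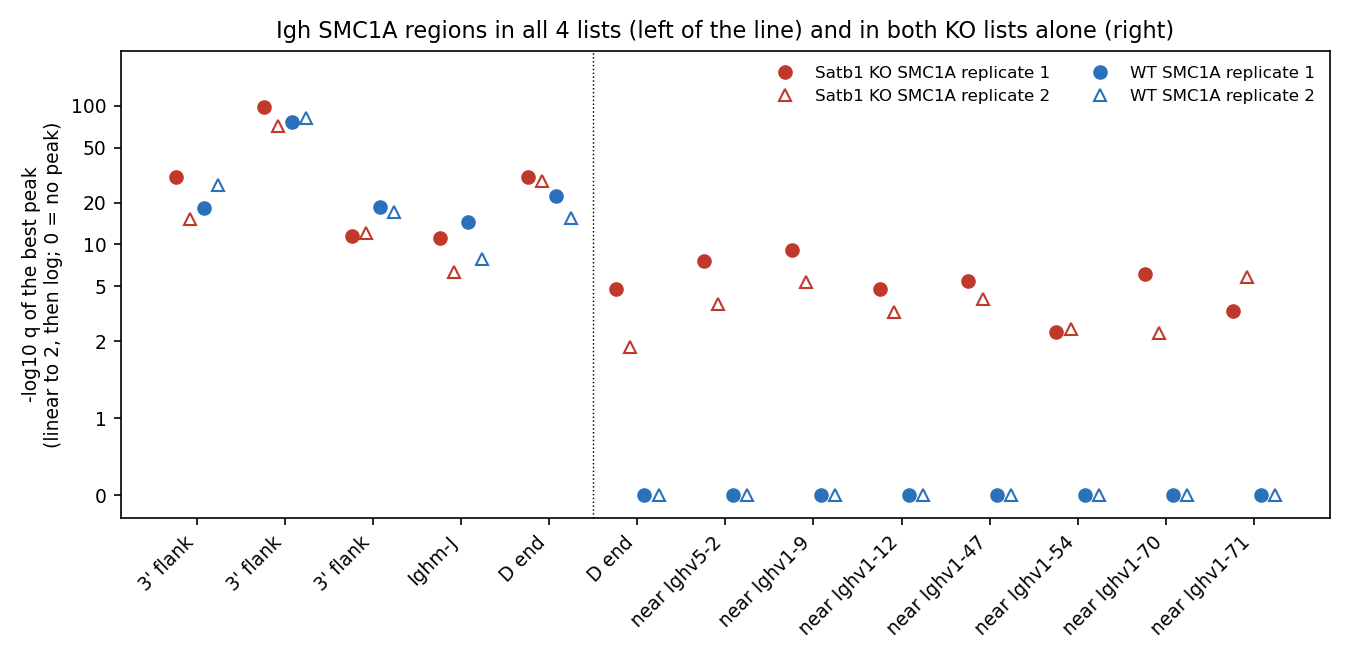
The best −log10 q (axis linear to 2, then log) in each SMC1A list for the 5 Igh regions in all 4 lists, left of the dotted line, and the 8 gained regions, right of it. Satb1 KO points stand left of WT points and 0 means no peak. The regions right of the line lie below 10 in Satb1 KO.

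Across the genome, SMC1A peak density in 1 Mb windows was compared with limma and Benjamini-Hochberg adjustment, and 51 of 1276 windows (4.00%) were higher in Satb1 KO and 25 (1.96%) lower. These counts were 0 and 0 in lists of equal length, and 8 and 7 without Satb1 KO replicate 1. The window from 115 to 116 Mb of chromosome 12, within the distal V segments, held 15 and 5 peaks in Satb1 KO and 1 and 0 in WT, and was higher in Satb1 KO by 3.16 ± 0.68 on the log2 scale (SE; limma adjusted p = 0.00029; higher in 2 of 2 Satb1 KO lists). It passed the minimum mean of 5 peaks only through its Satb1 KO lists, so a call there had to be a rise. The call was lost when each library's median was set to 0 (adjusted p = 0.106) and without Satb1 KO replicate 2 (adjusted p = 0.403), and the window fell below the minimum without Satb1 KO replicate 1, in lists of equal length and with −log10 q of 5 or more. The window from 114 to 115 Mb held 9 and 4 peaks in Satb1 KO and 0 and 1 in WT and missed the minimum. With only windows without any peak left out, it was higher in Satb1 KO by 2.66 ± 0.49 on the log2 scale (SE; limma adjusted p = 0.00414), and the window from 115 to 116 Mb by 3.16 ± 0.49 (limma adjusted p = 0.00087). At WT counts this low, both log2 values depend on the 0.5 peaks added to each count. The window from 113 to 114 Mb, with the constant, D and proximal V segments, held 25 and 22 peaks in Satb1 KO and 17 and 21 in WT, a log2 difference of 0.05 ± 0.18 (limma adjusted p = 0.94). Of this window 800 kb lies in Igh, and in each list some of its peaks lay outside the locus.

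CTCF, which marks where cohesin can be halted, held 118 and 27 Igh peaks in Satb1 KO and 32 in WT. Per 1000 peaks this was 2.12 and 1.18 in Satb1 KO and 0.821 in WT, with no test since only 1 WT list was used. The distal V segments held 82 and 13 in Satb1 KO and 12 in WT, or 1.47 and 0.567 per 1000 in Satb1 KO and 0.308 in WT. The proximal V segments held 25 and 7 in Satb1 KO and 10 in WT, or 0.448 and 0.305 per 1000 in Satb1 KO and 0.256 in WT. Satb1 KO replicate 1 stands apart from replicate 2 here, and 87 of the 127 merged Igh regions were in that list alone. In lists of equal length the distal counts were 25 and 13 in Satb1 KO and 3 in WT. Of the merged regions 16 were in all 3 lists, where the genome share was 27%. Of the 21 Igh regions in both Satb1 KO lists 5 were new, beside 8.29% over the genome, and 4 of the 30 WT regions were absent from Satb1 KO, beside 18.9%.

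The 6 CTCF regions among V segments with the highest lowest −log10 q lay near Ighv2-3, Ighv4-2, Ighv1-81, Ighv1-46, Ighv5-4 and Ighv1-9. The first, from 113610738 to 113611360 and 134 bp below Ighv2-3, had −log10 q of 38.9 and 10.9 in Satb1 KO and 17.1 in WT. The second, from 114012849 to 114013597 and 70 bp below Ighv4-2, had 45.3 and 8.91 in Satb1 KO and 11.1 in WT. That near Ighv1-81, from 115923982 to 115924584, had 34.3 and 7.01 in Satb1 KO and 7.43 in WT. The remaining 3 had between 4.14 and 36.9 over the 3 lists. The 5 new regions, named after their values were seen, lay near Ighv11-1, Ighv12-3, Ighv1-47, Ighv8-3 and Ighv1-71, and the one near Ighv1-47 overlapped a gained SMC1A region.

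The position of the peaks relative to the V segments differed between the 2 ends of the V array. Among proximal V segments, 22 of 25 and 7 of 7 CTCF summits in Satb1 KO and 10 of 10 in WT lay within 1 kb of a V segment, an area that covers 18.5% of the bases there. Of all these proximal summits, 17 and 6 in Satb1 KO and 7 in WT lay on the low coordinate side, within 500 bp of the V segment, where the recombination signal is. All proximal SMC1A summits, 5 and 2 in Satb1 KO and 2 and 1 in WT, were on that side too. Among distal V segments, 41 of 82 and 3 of 13 CTCF summits in Satb1 KO and 3 of 12 in WT were within 1 kb, which covers 16.5% of the bases. Distal SMC1A summits within 1 kb were 6 of 22 and 4 of 9 in Satb1 KO and 0 of 1 in each WT list.

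A second position recurred among distal V segments. Between 3.5 and 4 kb above the nearest V segment, a span chosen after the values were seen that covers 2.58% of the distal bases, lay 7 of 82 and 5 of 13 CTCF summits in Satb1 KO and 5 of 12 in WT. SMC1A had 5 of 22 and 2 of 9 summits there in Satb1 KO, and 0 of 1 and 1 of 1 in WT. Every one of these summits lay above a member of Ighv1 (the J558 family). It is the largest V family of the locus, with 92 members, while the distal part holds 121 V segments of all families. By its rule the distal part has no Ighv2 or Ighv5 member, so Ighv1 weighs more there than in the whole locus. The CTCF regions above Ighv1-9, Ighv1-14, Ighv1-46 and Ighv1-81 were at this position and in all 3 lists. The members share sequence, so they are not independent sites.

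**Figure D4:**
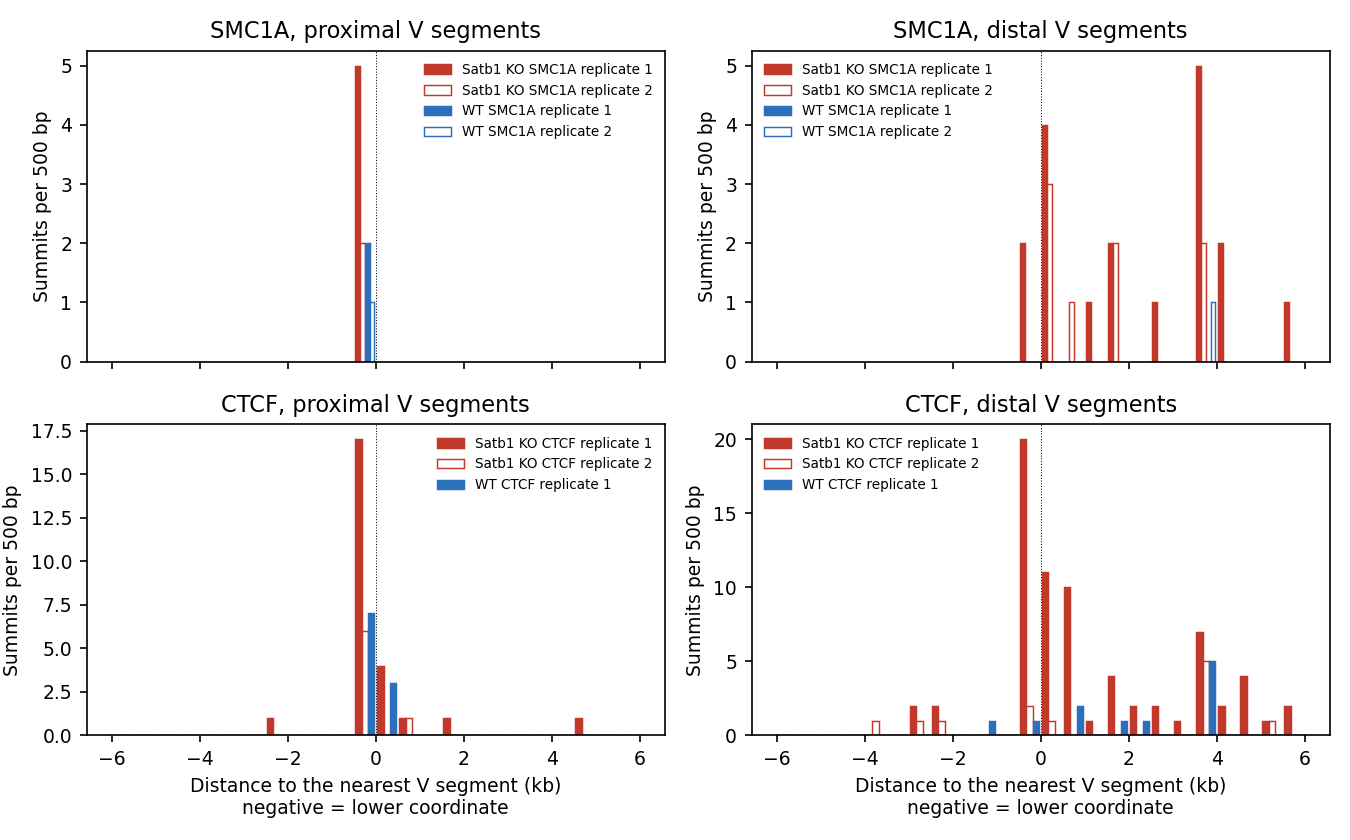
Summits per 500 bp by distance to the nearest Igh V segment in kb, negative on the low coordinate side, for SMC1A (top) and CTCF (bottom), with Satb1 KO in red, WT in blue and replicate 2 as open bars. Summits inside a segment count at 0. Proximal summits gather just below 0, and distal ones also between 3.5 and 4 kb above.

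By family, 55 of the 183 Igh V segments had a CTCF summit within 1 kb in at least 1 list, 55 and 9 of them in Satb1 KO and 12 in WT. Ighv14 had 3 of 4 members, Ighv2 had 5 of 11, Ighv1 had 31 of 92 and Ighv5 had 6 of 21, while Ighv3 had 0 of 8 and Ighv6 had 0 of 7. Of the segments annotated as functional type 47 of 120 were included and of the pseudogenes 8 of 63. Every segment counted in any list was counted in Satb1 KO replicate 1, so these family and type counts are those of that 1 list. Ighv1 had 31 members there, 2 in Satb1 KO replicate 2 and 3 in WT, and Ighv14 had 3, 0 and 0. Functional type segments numbered 8 in Satb1 KO replicate 2 and 10 in WT, and pseudogenes 1 and 2.

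SMC1A peaks in Igh lay at CTCF when the CTCF lists were pooled. They overlapped a CTCF peak of any list in 35 of 36 and 20 of 20 cases in Satb1 KO and in 10 of 10 and 12 of 12 in WT, with lower Wilson 95% bounds of 85.8% and 83.9% in Satb1 KO and 72.2% and 75.8% in WT. In the rest of the genome the share was 95.0% and 96.3% in Satb1 KO and 95.8% and 93.8% in WT. List by list, the 28 merged SMC1A regions among Igh V segments differed. A CTCF peak overlapped 27 of them in Satb1 KO replicate 1, 10 in Satb1 KO replicate 2 and 11 in WT. The difference between genotypes in Igh was -1.39 percentage points (exact two-sided permutation p = 1). Against the WT CTCF list alone it was -37.2 percentage points in Igh and 23.3 in Igk (exact two-sided permutation p = 0.333 for each), so the size of the difference depended on which CTCF lists were used. The reverse share was lower among V segments, where 24.3% and 50% of the CTCF peaks in Satb1 KO and 50% in WT overlapped an SMC1A peak of any list. Outside the V segments of Igh it was 63.6% and 100% in Satb1 KO and 80% in WT, and in the rest of the genome 51.5% and 77.2% in Satb1 KO and 62.4% in WT. The intervals cover counting error only.

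Igk held few peaks for its length, with 1 SMC1A site among the V segments and 1 before the J segments that were in all 4 lists. It held 5 and 5 SMC1A peaks in Satb1 KO and 3 and 3 in WT, and 14 and 9 CTCF peaks in Satb1 KO and 7 in WT. Per 1000 peaks, SMC1A was at 0.178 and 0.242 in Satb1 KO and 0.151 and 0.145 in WT, a mean difference of 0.0615 that rests on 2 peaks a list (exact two-sided permutation p = 0.333, the smallest possible). The difference was 0.0267 within batch 1 and 0.0963 within batch 2, 0.027 without the flanks of the locus (p = 0.667 by the same exact test), 0.0295 without Satb1 KO replicate 2 and 0.0935 without Satb1 KO replicate 1. CTCF was at 0.251 and 0.393 per 1000 in Satb1 KO and 0.180 in WT. The 1 Mb window from 70 to 71 Mb, which holds Igkc, had 13 and 11 SMC1A peaks in Satb1 KO and 10 and 11 in WT. Its log2 difference was -0.07 ± 0.23 (limma adjusted p = 0.934). The window from 67 to 68 Mb had 18 and 11 in Satb1 KO and 9 and 6 in WT. Its log2 difference was 0.64 ± 0.23 (limma adjusted p = 0.0776). In both windows most peaks lay outside Igk, so these values describe the neighbourhood more than the locus. The window from 68 to 69 Mb had 0 in all 4 lists. With window starts moved by 0.5 Mb, the window from 70.5 to 71.5 Mb, most of which lies outside Igk, held 41 and 28 peaks in Satb1 KO and 40 and 36 in WT and was lower in Satb1 KO, with a log2 difference of -0.41 ± 0.13 (limma adjusted p = 0.0492).

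**Figure D5:**
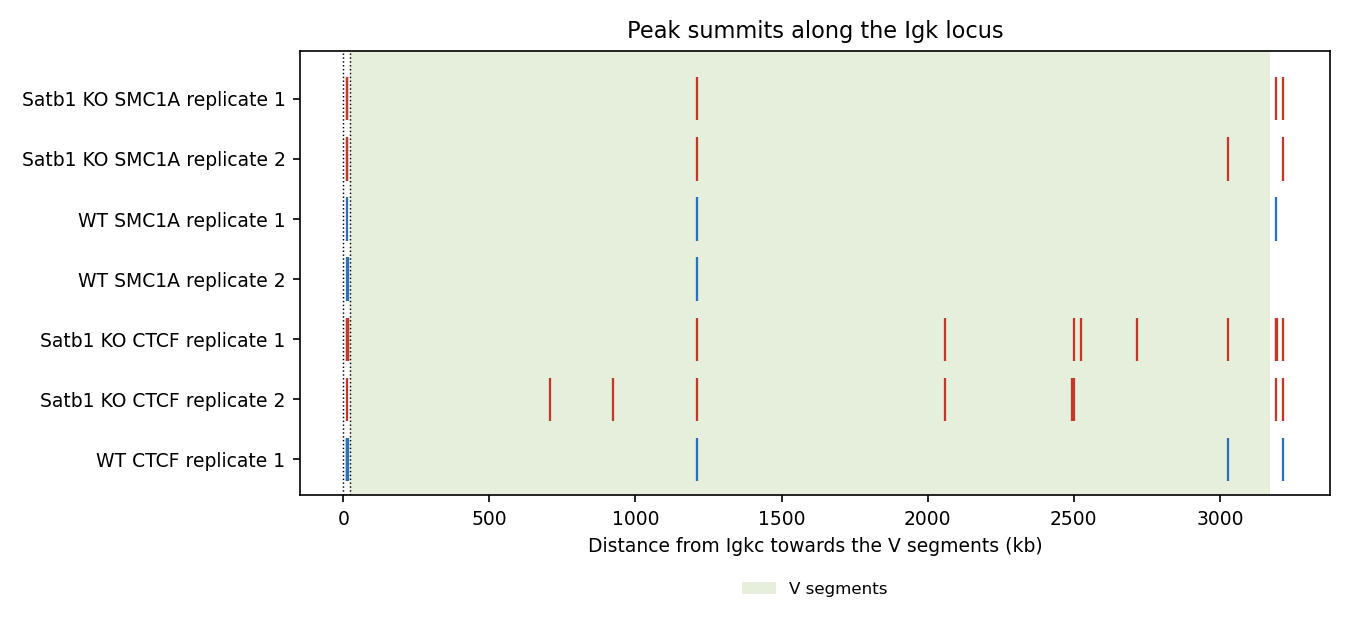
Summits of all Igk peaks by list (rows, Satb1 KO in red, WT in blue) against distance from Igkc towards the V segments in kb. Dotted lines mark Igkc and Igkv3-1, the V segment nearest it. A site among the V segments and one between Igkv3-1 and Igkc stand in every list.

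From Igkj1 through Igkc to the end of the interval, no list held a peak. The nearest summit lay in the interval between Igkv3-1 and Igkj1, in which the Cer and Sis CTCF elements, known to steer kappa V usage in B cells, were mapped. It was 11984 and 11934 bp below Igkc in the Satb1 KO SMC1A lists and 12050 and 11990 bp below it in the WT lists. The SMC1A region there, from 70714219 to 70714707 within the long noncoding RNA gene Gm46961, had −log10 q of 6.20 and 5.41 in Satb1 KO and 8.39 and 3.38 in WT. The CTCF region, from 70714160 to 70715191, had 55.7 and 2.07 in Satb1 KO and 11.7 in WT. A neighbouring CTCF region from 70713704 to 70714034 was in the WT list alone, with −log10 q of 2.58, a weak peak. The CTCF region from 70714160 beside it was in all 3 lists.

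The V segments of Igk, 3149 kb with 162 members, held 1 and 2 SMC1A peaks in Satb1 KO and 1 and 1 in WT, and 6 and 6 CTCF peaks in Satb1 KO and 2 in WT. Per 100 kb, SMC1A stood there at 0.0318 and 0.0635 in Satb1 KO and 0.0318 in each WT list. No summit of either mark in the 7 lists came within 1 kb of a kappa V segment, an area that covers 12.8% of the bases. The site shared by all 7 lists lay from 69516192 to 69516558, 7367 bp below Igkv13-57-2. With −log10 q of 72.2 and 47.2 in Satb1 KO and 115 and 108 in WT, it was the strongest Igk SMC1A region, and its CTCF −log10 q was 29.6 and 73.0 in Satb1 KO and 23.1 in WT. The 2 new CTCF regions among kappa V segments, named after their values were seen, lay from 68226631 to 68226897 near Igkv2-112 and from 68668421 to 68668824 near Igkv2-95-1.

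Beyond the outermost kappa V segment, SMC1A gained a region from 67510832 to 67511306 in Satb1 KO, with −log10 q of 3.91 and 2.78. CTCF was in all 3 lists there (67510708 to 67511236). For CTCF, 3 of the 6 Igk regions in both Satb1 KO lists were new, beside 8.29% over the genome. For SMC1A, Igk had 1 gained region of the 3 in both Satb1 KO lists, beside 13.1% over the genome, and 0 lost of the 2 in both WT lists, beside 4.15%.

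Genes outside the 2 loci that act in B cells or in recombination were described by the regions within 20 kb of their bodies. Over the genome, of 35221 SMC1A regions 12326 (35.0%) were in all 4 lists, 616 were lost and 2277 were gained. The lost ones were 4.15% of regions in both WT lists, and the gained ones 13.1% of those in both Satb1 KO lists. Near genes, lost and gained regions are counted out of all regions, so these last percentages have another base. Of 24 SMC1A regions near 12 B cell genes, 14 were in all 4 lists, 0 were lost and 1 was gained, near Blnk, an adaptor of B cell receptor signalling. Cd79a and Cd79b, which encode the signalling chains of the B cell receptor, had 4 of 5 and 2 of 3 SMC1A regions in all 4 lists, Ebf1, an early B lineage factor, had 1 of 2, and Pax5, the factor that keeps B cell identity, had none, with 1 of 2 CTCF regions in all 3 lists. The 10 DP thymocyte genes had 80 SMC1A regions, of which 31 were in all 4 lists, 2 were lost and 1 was gained. The 13 recombination and repair genes had 60, of which 22 were in all 4 lists, 1 was lost and 4 were gained. Rag1, Rag2 and Dntt are in both of these lists. Rag1 and Rag2, the recombinase genes, had 2 of 5 SMC1A regions in all 4 lists each, with overlapping search windows, and Dntt, which adds bases at the joints, had 3 of 8. The lambda light chain genes Iglc1, Iglc2, Iglc3, Iglv1 and Iglv2 had no region of either mark. For CTCF, the B cell genes had 48 regions with 17 in all 3 lists, 4 absent and 2 new, the DP thymocyte genes 107 with 27, 19 and 1, and the recombination and repair genes 91 with 25, 13 and 1. Over the genome, of 63947 CTCF regions 17272 (27%) were in all 3 lists, 6834 were absent and 1561 were new. On their own bases, the absent ones were 18.9% of regions in the WT list, and the new ones 8.29% of those in both Satb1 KO lists.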

How the data were processed

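CUT&RUN was done on sorted DP thymocytes with antibodies to CTCF or SMC1A, per the labels' protocols. Per the submitters' processing notes, the build was mm10 and the tools included MACS2, Bowtie2, deepTools, SAMtools, Trimmomatic 1.24 and R 4.12. For settings, the control and the placing of reads that match several V segments, the sources used here give nothing. The authors deposited 1 narrowPeak list per library, so peaks were called per library. The deposited columns used are the fold enrichment (ratio), −log10 p and −log10 q per peak, and the summit offset. The highest q was 0.0498.

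Only autosomes and sex chromosomes were used, and peaks of 1 mark were merged on an overlap of 1 bp. Parts of the loci were cut at gene segments of RefSeq GRCm38.p6, which has no strand. Whole pile-ups were solved from fold and −log10 p, which were met within 0.001 for at least 99.9% of peaks tried. For the windows of 1 Mb, limma 3.58.1 (R 4.3.3) was run where the mean reached 5 peaks, on log2((peaks + 0.5) per 1000000 peaks). The test was tried on simulated counts that hold counting error only, without other variation between libraries. Its error rate in the real lists was not tested. Other steps used Python 3.11.15, numpy 2.4.6, pandas 2.3.3 and scipy 1.17.1. Batch 1 and batch 2 are the replicate numbers in the sample titles. Whether libraries of the same number were handled together is not known from the titles. Same-numbered SMC1A deviations from the genotype means had a correlation of 0.00307 over 1276 windows.

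The loci, gene lists and rules were chosen with earlier results of these data known. Named regions are those outside the V segments that are in all lists of a mark, lost or gained, the 6 strongest shared regions of each mark among the V segments of each locus, and up to 8 lost or gained SMC1A regions there. The alternatives tried were a stricter q (−log10 q of at least 5), equally long lists, other overlap rules, other window settings, locus bounds without flanks, the WT CTCF list alone, leaving out each replicate, and a replicate block. One region that this rule names is not reported here.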

Additional observations from a re-analysis of the deposited data

How the results depend on the processing

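Igh and Igk peaks per 1000 kept their direction under every setting run, with Satb1 KO minus WT for SMC1A in Igh between 0.365 and 0.776, and for the distal V segments, settings added after seeing the data, between 0.380 and 0.732. With the replicate block (differences within batches) Igh gave 0.776 and 0.385, Igk 0.0267 and 0.0963, and the limma windows 55 higher and 25 lower, with a log2 difference of 3.16 at 115 to 116 Mb of chromosome 12. The block changed no call of a named window or locus value. That window had 3.08 (no call) with library medians set to 0, which moves the median of all windows by -0.09. With 1 replicate left out it had 2.34 to 3.98 where it was tested. Without Satb1 KO replicate 1 it fell below the minimum mean and was not tested. For shares of SMC1A peaks at CTCF, the differences lay between -37.2 and 0 points in Igh and between -12.5 and 23.3 in Igk, with the -37.2 and the 23.3 from the WT CTCF list alone.

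Counts of regions and of windows moved under the settings below, and the cause was not tested. With −log10 q of 5 or more, SMC1A gave 1 gained Igh region, 0 gained in Igk and 1 Igk region in all lists. CTCF gave 0 absent, 2 new and 10 shared in Igh, and 0 absent and 1 shared in Igk. The 2 new were of 12 Igh regions in both Satb1 KO lists, beside 7.70% over the genome. Windows gave 14 higher and 4 lower. In lists of equal length SMC1A gave 3 gained in Igh and 0 in Igk. CTCF gave 2 absent, 10 new and 9 shared in Igh, and 0 absent and 1 new in Igk. The 10 new were of 19 Igh regions in both Satb1 KO lists, beside 10.4% over the genome. Windows gave 0 higher and 0 lower in limma, with 164 at an unadjusted p under 0.05. Summits within 200 bp gave 1 lost SMC1A Igh region and 7 absent CTCF Igh regions. This rule or an overlap of 0.5 of the shorter peak gave 2 absent CTCF Igk regions. Other window settings gave 3 higher and 1 lower (medians at 0) and 16 lower (starts moved by 0.5 Mb). With only windows without any peak left out, 8 were lower.

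With 1 replicate left out, SMC1A Igh had 0 to 2 lost and 9 to 24 gained regions. Without a Satb1 KO list, a gained or new region needs only the other 1, so such counts rise over the genome too. Without Satb1 KO replicate 2, 24 of 34 Igh regions were gained, beside 31.6% over the genome. Without Satb1 KO replicate 1, 10 of 19 were, beside 21.9%. SMC1A Igk had 0 to 1 lost and 1 to 3 gained, the 1 lost without WT replicate 1 and the 3 gained without Satb1 KO replicate 1. CTCF Igh had 4 to 15 absent, 10 to 92 new and 17 to 26 shared. The 15 came without Satb1 KO replicate 1, and the 92 and 26 without Satb1 KO replicate 2. The new regions were 92 of 118 without Satb1 KO replicate 2, beside 47.1% over the genome. They were 10 of 27 without Satb1 KO replicate 1, beside 18.6%. CTCF Igk had 1 to 4 absent, 6 to 8 new and 3 to 6 shared. Windows were 8 to 37 higher, the 8 without Satb1 KO replicate 1, and 3 to 10 lower, the 3 without WT replicate 1. Depth limits what absence from a list shows, since the SMC1A peaks among distal V segments had a median of 10 and 9 reads at the summit in Satb1 KO.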
